A study of Mus musculus with 4 samples.

Results

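The genes described are 34 mouse genes of glycolysis and of the response to low oxygen, taken as a list of gene symbols and all found among the 32285 genes of the deposited matrices. By role they were 2 glucose transporters, 2 hexokinases, 8 enzymes and regulators of upper glycolysis, 5 enzymes of lower glycolysis, 4 genes of lactate and pyruvate handling, 3 regulators of the hypoxia response, 9 genes that low oxygen induces and the cytokine gene Mif. Their level was read as unique molecular identifiers (UMIs, which mark single captured 3' transcript ends), summed over the cells of a class in a library and given as CPM, the count scaled to a common total of UMIs. CPM of 3' ends is used here to compare the same gene between cells.

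Glycolysis splits glucose into pyruvate in the cytosol and yields ATP without oxygen. Glucose enters through Slc2a transporters, is trapped by hexokinases, and leaves as lactate made by lactate dehydrogenase and exported by Slc16a3. When oxygen is scarce, prolyl hydroxylases such as Egln1 and Egln3 no longer mark the Hif1a protein for destruction, and the stabilised factor binds short ACGTG or GCGTG motifs near its targets, which include many glycolytic enzyme genes and Egln3 itself. Hif1a is controlled largely at the protein level, so its mRNA is not a readout of its activity.

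The study compared tumors grown in wild-type (WT) mice and in mice without Lrrc25 (Lrrc25-/-), a gene of myeloid cells, with no treatment. B16F10 melanoma was harvested at day 14 and MC38 colon carcinoma at day 26 after inoculation, so the genotype is that of the host and the tumor cells come from inoculated lines. Each of the 4 libraries (WT B16F10, Lrrc25-/- B16F10, WT MC38 and Lrrc25-/- MC38) was 1 pool of tumor tissue from 3 mice, freed of erythrocytes, debris and dead cells, in which bead-isolated CD45+ cells were added to unsorted cells at 5:1. A genotype is thus 1 library per tumor model, and tumor model, day of harvest and library cannot be told apart. Values for the 4 libraries are given below in the order WT B16F10, Lrrc25-/- B16F10, WT MC38, Lrrc25-/- MC38.

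After filters and doublet removal 9319 to 15792 cells were kept per library, with medians of 4340.5 to 9675 UMIs, and any pair of libraries shared 96 to 247 cell barcodes, at most 1.40% of a library. Cells were classed by marker genes into 3540 to 8448 macrophages, 75 to 400 neutrophils and 251 to 917 CD8 T cells per library, 2418 and 3293 melanoma cells and 1276 and 1517 MC38 tumor cells. The 8 macrophage markers summed to 9212 to 14902 CPM in macrophages and to 107 to 201 CPM in tumor cells. The deleted gene Lrrc25 was at 163 and 95.8 CPM in WT and at 4.95 and 2.12 CPM in Lrrc25-/- macrophages of B16F10 and MC38. Melanoma RNA was found in other classes of the B16F10 libraries: 6 pigment genes summed to 404 CPM in WT and 271 CPM in Lrrc25-/- macrophages, which is 3.37% and 1.79% of their level in melanoma cells, while Tyrp1, Dct, Tyr and Slc45a2 were at 0 in MC38 macrophages.

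Promoter sequences are shown because the list is defined in part by the hypoxia factor's targets. RefSeq windows of 300 bases (build GRCm38.p6, 250 bases before to 50 after the annotated start) were found for 31 of the 34 members, not for Slc2a3, Ndrg1 and Ero1l. The motif searched was ACGTG or GCGTG on both strands, with matches on opposite strands that overlap counted separately, and a gene with several windows was taken at the window with the most matches. At least 1 match was held by 29 of the 31 members (93.5%), against 65.6% of 10788 genes with 50 or more UMIs in macrophages and 46.7% of 27025 genes with a window. Both comparison sets left out 1 chromosome, which holds no member. Members were listed partly as targets of the hypoxia factor, so an excess of matches was set in advance and is not a result. The share with 2 or more matches was 74.2% of members against 36.9% of the genes seen in macrophages. The 6 windows printed are those of the 4 genes with a window that differed most between the macrophage subsets described next, of Ldha, which held the most matches among members, and of Tpi1, which held none. Each is written 5′ to 3′ on the gene's strand, with matches in capitals.
Egln3 (chr12:54203825-54204124, minus strand): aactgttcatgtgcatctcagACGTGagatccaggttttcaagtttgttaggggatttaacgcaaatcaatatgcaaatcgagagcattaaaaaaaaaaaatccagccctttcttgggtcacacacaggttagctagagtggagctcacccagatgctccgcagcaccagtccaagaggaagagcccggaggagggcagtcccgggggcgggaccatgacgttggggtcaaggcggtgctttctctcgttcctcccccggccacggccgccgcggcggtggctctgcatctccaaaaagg
Ankrd37 (chr8:45999801-46000100, minus strand): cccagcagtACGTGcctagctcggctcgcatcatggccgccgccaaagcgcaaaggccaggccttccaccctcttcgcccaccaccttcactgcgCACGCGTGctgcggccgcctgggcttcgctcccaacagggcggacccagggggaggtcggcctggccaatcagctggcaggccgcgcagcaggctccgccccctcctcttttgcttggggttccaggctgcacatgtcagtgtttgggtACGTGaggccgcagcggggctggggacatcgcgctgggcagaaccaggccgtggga
Bnip3 (chr7:138909457-138909756, minus strand): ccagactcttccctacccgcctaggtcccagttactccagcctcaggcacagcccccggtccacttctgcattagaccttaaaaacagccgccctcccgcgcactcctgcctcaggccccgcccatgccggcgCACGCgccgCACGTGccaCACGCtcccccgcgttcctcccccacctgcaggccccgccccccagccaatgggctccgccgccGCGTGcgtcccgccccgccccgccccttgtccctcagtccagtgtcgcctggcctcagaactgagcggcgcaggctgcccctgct
P4ha2 (chr11:54100674-54100973, plus strand): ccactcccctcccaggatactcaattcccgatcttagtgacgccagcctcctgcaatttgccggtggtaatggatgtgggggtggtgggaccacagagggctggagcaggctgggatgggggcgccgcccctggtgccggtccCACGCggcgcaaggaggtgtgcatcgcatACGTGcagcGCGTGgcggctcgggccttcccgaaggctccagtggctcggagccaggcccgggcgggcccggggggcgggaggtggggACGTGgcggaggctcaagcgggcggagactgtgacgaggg
Ldha (chr7:46845554-46845853, plus strand): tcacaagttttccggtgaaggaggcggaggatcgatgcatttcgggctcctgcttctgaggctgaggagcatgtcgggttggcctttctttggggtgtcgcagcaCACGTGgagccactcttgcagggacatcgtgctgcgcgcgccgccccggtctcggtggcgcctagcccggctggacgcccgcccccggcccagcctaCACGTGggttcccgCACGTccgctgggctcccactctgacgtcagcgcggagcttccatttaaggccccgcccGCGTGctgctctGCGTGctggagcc
Tpi1 (chr6:124814109-124814408, minus strand): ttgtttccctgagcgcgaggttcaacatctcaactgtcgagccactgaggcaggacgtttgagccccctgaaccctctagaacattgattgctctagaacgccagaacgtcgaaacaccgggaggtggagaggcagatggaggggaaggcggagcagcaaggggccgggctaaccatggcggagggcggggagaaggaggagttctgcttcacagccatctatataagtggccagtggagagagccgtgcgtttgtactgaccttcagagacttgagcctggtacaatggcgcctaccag

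The Ldha window held 7 matches, that of Bnip3 5, those of Ankrd37 and P4ha2 4 each and that of Egln3 1. A match describes letters in this window and is not a measured binding site. At least 1 match was held by 23 of 25 members called between the Arg1+ and Cxcl9+ macrophages described next, and by 6 of 6 not called. Gpi1 and Tpi1 were the members with a window and no match.

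Macrophages that carried Arg1 had higher levels of most of these genes than macrophages that carried Cxcl9. Arg1+ macrophages (Arg1, an arginine-degrading enzyme, with at least 1 UMI and none of Cxcl9) numbered 661 to 3742 per library, and Cxcl9+ macrophages (Cxcl9, an interferon-induced chemokine, with at least 1 UMI and none of Arg1) 342 to 1613. In edgeR's quasi-likelihood test with library as a block and Benjamini-Hochberg adjustment over 12143 genes, 27 of the 34 members were higher in Arg1+ cells and 0 were lower, beside 8.82% and 8.31% of all genes. The list was chosen with earlier results of these data known, so this excess cannot be read as independent of the choice. Values in parentheses after a tested comparison are log2 fold changes with their SE. The median log2 fold change was 0.98 for the members and 0.01 for all genes tested. All 27 called members were higher in Arg1+ cells within each of the 4 libraries. They were called from these same libraries, so this agreement was largely set by the call and is no further support. In each library 25 of them were also higher in Arg1+ cells than in Mrc1+ macrophages with neither gene. For 20 members the macrophages with both Arg1 and Cxcl9 lay between the other 2 subsets in every library. These counts by library were not taken over all genes, so no general share stands beside them. Genes named below as not overlapping were picked among the largest called differences, which favors a lack of overlap.

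The prolyl hydroxylase gene Egln3, a target of the factor that it restrains, had the largest difference. It was at 24.8, 28.8, 48.4 and 47.1 CPM in Arg1+ cells and at 5.53, 3.43, 4.55 and 7.05 CPM in Cxcl9+ cells. The subsets did not overlap, and the log2 fold change was 2.97 ± 0.16 (SE, higher in 4 of 4 libraries, edgeR adjusted p = 7.53e-06). In macrophages with both genes Egln3 was at 16.3, 19.5, 24.9 and 31.6 CPM, and in Mrc1+ cells at 5.35, 5.47, 6.81 and 10.9 CPM. Egln1, which encodes the main oxygen sensor of this family, was higher by 1.12 ± 0.09 on the log2 scale. The mRNA of Hif1a did not pass the test (0.30 ± 0.14): it was at 65.4, 97.5, 396 and 399 CPM in Arg1+ and 50.1, 60.3, 437 and 423 CPM in Cxcl9+ cells, higher in Arg1+ cells of both B16F10 libraries and lower in those of both MC38 libraries.

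Of the 9 genes that low oxygen induces, 8 were higher in Arg1+ macrophages. Bnip3, a receptor for the removal of mitochondria, was at 318, 258, 264 and 259.7 CPM in Arg1+ and 113, 71.8, 65.0 and 81.0 CPM in Cxcl9+ cells. Every Arg1+ value lay above every Cxcl9+ value, with a log2 fold change of 1.88 ± 0.10 (edgeR adjusted p = 6.18e-06, 4 of 4 libraries). Hilpda, a lipid droplet protein that blocks fat breakdown, was at 1262, 1502, 436 and 487 CPM against 496, 595, 124 and 145 CPM (1.68 ± 0.10). The B16F10 values were the higher ones in both subsets, so the subsets overlapped across libraries, while Arg1+ cells were higher within each. Ankrd37, an ankyrin repeat gene induced by low oxygen, showed the same pattern, at 82.9, 48.1, 15.3 and 14.8 CPM against 26.1, 7.84, 6.07 and 5.44 CPM (1.92 ± 0.18).

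The other induced genes encode enzymes of protein folding and collagen modification and regulators of stress. Ero1l, an oxidase that supports disulfide bond formation in the endoplasmic reticulum, was at 168, 151, 196 and 174 CPM in Arg1+ and 54.1, 36.8, 57.7 and 70.1 CPM in Cxcl9+ cells (1.79 ± 0.12). P4ha2, a subunit of collagen prolyl hydroxylase, was at 14.3, 19.1, 20.2 and 15.1 CPM against 6.14, 5.15, 5.57 and 5.44 CPM (1.74 ± 0.15). Neither gene overlapped between the subsets. Ndrg1, a stress-induced gene, was at 253, 153, 129 and 140.1 CPM against 103, 75.7, 65.0 and 82.3 CPM (1.14 ± 0.10), also without overlap. Ddit4, an inhibitor of mTORC1 signalling, was low, at 12.7, 15.5, 3.94 and 5.28 CPM against 7.68, 6.37, 2.28 and 2.47 CPM (1.14 ± 0.18). Car9, a carbonic anhydrase of the cell surface, did not pass the test and overlapped, at 4.88 to 9.17 CPM against 5.81 to 10.1 CPM.

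Along glycolysis most steps were higher in Arg1+ cells. The glucose transporter gene Slc2a1 was at 228, 190.4, 135 and 125 CPM in Arg1+ and 80.2, 48.0, 77.2 and 89.5 CPM in Cxcl9+ cells (1.29 ± 0.21). The subsets did not overlap, and within a library the log2 ratio ran from 0.48 in Lrrc25-/- MC38 to 1.97 in Lrrc25-/- B16F10. Both hexokinase genes were called, with smaller values, 0.45 ± 0.10 for Hk1 and 0.44 ± 0.09 for Hk2. Aldolase Aldoa was at 2132, 1856, 1067 and 1115 CPM against 1122, 935, 460.0 and 605 CPM (1.13 ± 0.08). Phosphoglycerate kinase Pgk1 was at 1242, 1112, 889 and 846 CPM against 622, 537, 350.2 and 417 CPM (1.23 ± 0.08). Pgk1 did not overlap between subsets, whereas Aldoa differed within each library only. All 5 genes of lower glycolysis were called, from 0.82 for Gapdh to 1.23 for Pgk1, and Ldha, which makes lactate, was higher by 1.00 ± 0.08. Reads of Gapdh and Eno1 may be shared with near-identical copies. The lactate exporter gene Slc16a3 was at 151, 204, 208 and 189.6 CPM against 73.7, 55.9, 112 and 116 CPM (1.23 ± 0.17), without overlap.

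The 7 members that did not pass the test were Slc2a3 (-0.54 ± 0.24), Slc16a1 (0.12 ± 0.15), Pfkp (0.14 ± 0.08), Pfkfb3 (-0.21 ± 0.10), Pfkfb4 (0.16 ± 0.15), Hif1a and Car9. Slc2a3, the other glucose transporter, was low in both subsets, at 1.65 to 2.28 CPM in Arg1+ and 3.07 to 3.43 CPM in Cxcl9+ cells. With library totals in place of TMM scaling, which moved the median of all genes by -0.12, 27 members were higher and 1 lower.

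**Figure D1:**
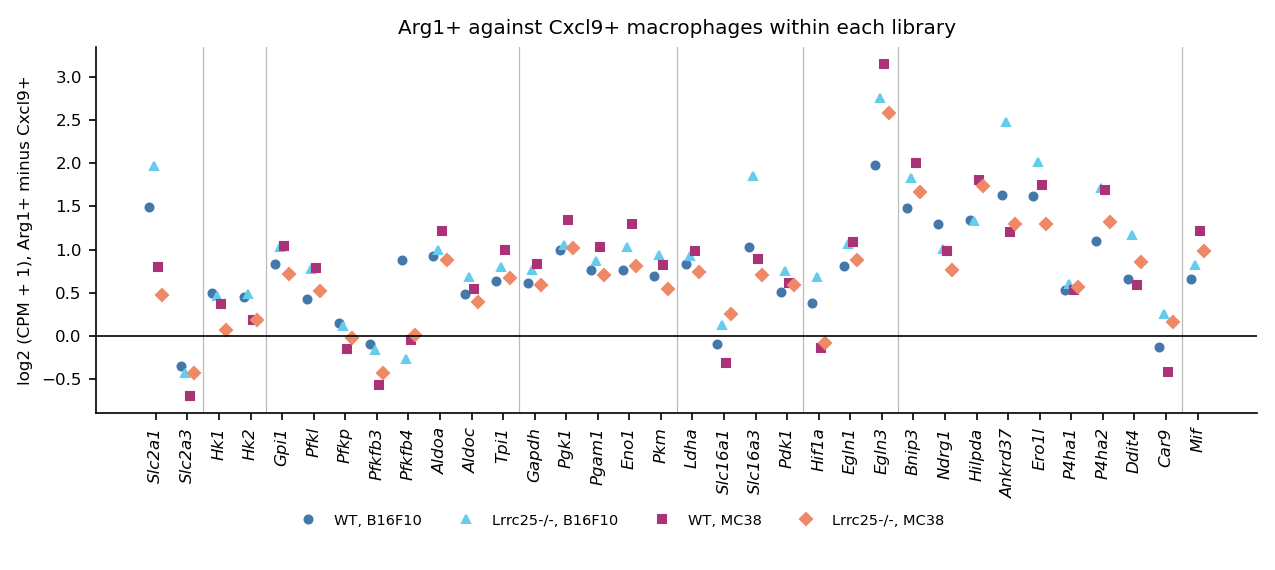
Difference between Arg1+ and Cxcl9+ macrophages within each of the 4 libraries, as log2 of CPM + 1, 1 marker per library, with the genes in order of role. For 27 members all 4 markers lie above 0, and Egln3 has the largest fitted difference, 2.97.

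Of 55 further genes of these pathways 46 were tested, and 15 were higher in Arg1+ macrophages and 1 was lower. The largest differences were those of the vasodilator peptide gene Adm (2.08 ± 0.23), the adenylate kinase gene Ak4 (1.98 ± 0.25), Epas1, which encodes the related factor HIF-2alpha (1.70 ± 0.35), the angiogenic factor gene Vegfa (1.38 ± 0.26), the mitochondrial gene Fam162a (1.22 ± 0.11) and the mitophagy receptor gene Bnip3l (1.21 ± 0.11). Ppfia4, named after its value was seen, was the gene that was lower (-1.20 ± 0.14).

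Other properties of the subsets were measured beside these values, and their part in the result was not tested except where stated. The 8 macrophage markers summed to 11456, 11706, 8323 and 10187 CPM in Arg1+ and to 17261, 18107, 10638 and 12141 CPM in Cxcl9+ cells, so they were lower in Arg1+ cells of every library. The 8 neutrophil markers summed to 64.9, 100.1, 148 and 189 CPM in Arg1+ and to 34.4, 57.6, 85.3 and 119.7 CPM in Cxcl9+ cells, and were higher in Arg1+ cells of every library. UMIs of the gating genes were also found in T cells, which should lack them: Arg1 had a UMI in 21.1%, 37.7%, 78.7% and 69.2% of macrophages and in 14.3%, 9.33%, 15.8% and 16.3% of T cells, whose median depths were 2723.5 to 5151 UMIs against 4355.5 to 8803. For Cxcl9 the shares were 12.1%, 13.5%, 45.7% and 62.7% of macrophages and 4.25%, 2.13%, 6.56% and 10.6% of T cells. In the deeper tumor cells (medians of 16043.5 to 25462 UMIs) Arg1 had a UMI in 10.5% and 23.6% of WT and Lrrc25-/- melanoma cells and in 39.0% and 43.4% of MC38 tumor cells, and Cxcl9 in 5.74%, 4.88%, 16.2% and 30.6%. Cells with a cycling marker made up 30.4% to 39.0% of Arg1+ and 39.3% to 61.4% of Cxcl9+ macrophages; without them 25 members were higher and 0 lower. With the gate applied to cells thinned to 1000 UMIs, 26 were higher and 0 lower. Pigment genes summed to 416 and 276 CPM in Arg1+ and to 385 and 253 CPM in Cxcl9+ cells of WT and Lrrc25-/- B16F10.

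The 34 genes took the largest share of UMIs in melanoma cells, 3.16% in the WT and 2.92% in the Lrrc25-/- library. In macrophages the share was 1.33%, 1.30%, 0.992% and 0.985%, and the members with the highest CPM were Gapdh, at 3041, 2857, 1662 and 1810.0 CPM, Aldoa, at 1401, 1370.3, 887 and 925 CPM, and Ldha, at 1446, 1348, 752 and 660.3 CPM. The share was 1.15% to 1.93% in Arg1+ and 0.595% to 1.11% in Cxcl9+ macrophages. MC38 tumor cells, at 0.771% and 0.944%, were below the Arg1+ macrophages of both MC38 libraries, at 1.15% in each.

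**Figure D2:**
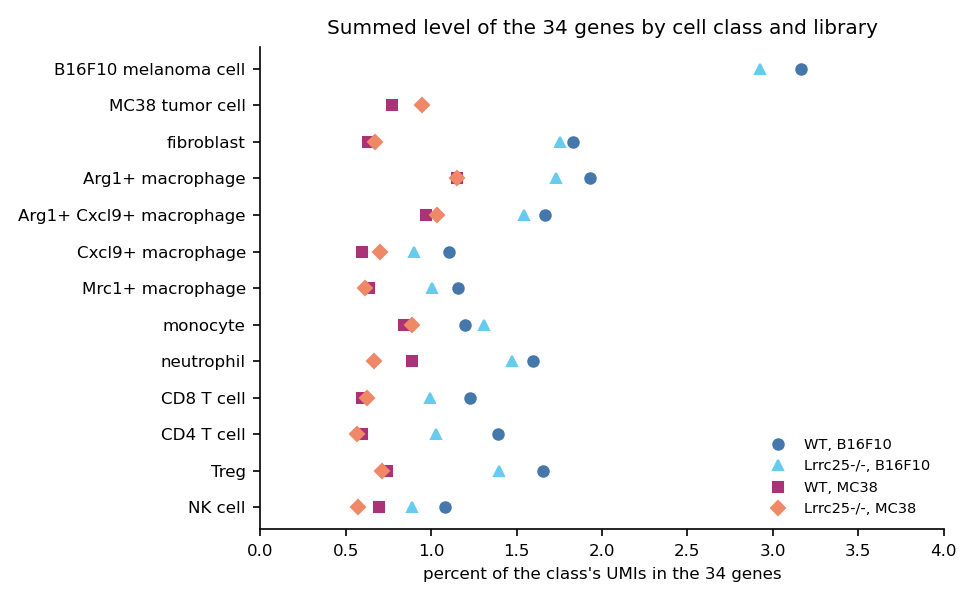
Percent of the UMIs of a cell class that fell on the 34 genes, 1 marker per library. Melanoma cells lie at 2.92% and 3.16%, and in each class found in both models the B16F10 libraries lie to the right of the MC38 libraries; NK cells of WT B16F10 are 24 cells.

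Neutrophils differed from macrophages in both directions. In a fit over the 4 libraries 9 members were higher and 9 lower, beside 11.8% and 27.7% of 13788 genes (39.5% called, edgeR quasi-likelihood test, Benjamini-Hochberg adjustment). Lower members were about as frequent as lower genes in general, and the median log2 fold change of all genes tested was -0.69. Slc2a3, a high-affinity glucose transporter, was at 153, 116, 197 and 206 CPM in neutrophils and 3.21, 3.14, 2.07 and 2.25 CPM in macrophages (5.76 ± 0.36). Egln3 was at 192, 187, 385 and 379.9 CPM against 10.1, 15.3, 32.5 and 30.4 CPM (3.55 ± 0.32). For both genes every neutrophil value lay above every macrophage value. Ddit4 (2.45), Ero1l (1.64), Slc16a3 (1.61), Hif1a (1.16), Pfkfb4 (1.13), Pfkfb3 (0.88) and Ankrd37 (0.88) were the others that were higher.

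The members lower in neutrophils were P4ha2 (-3.26), Car9 (-2.77), Ndrg1 (-1.44), Egln1 (-1.22), Tpi1 (-1.13), Gapdh (-0.93), Aldoa (-0.92), Pgk1 (-0.86) and Gpi1 (-0.82), of which 5 are glycolytic enzymes. P4ha2 was at 6.63, 0, 0 and 2.90 CPM in neutrophils and at 9.98 to 14.9 CPM in macrophages. Car9 was at 0, 2.67, 0 and 0 CPM against 5.15 to 10.2 CPM. Both genes were low or at 0 in neutrophils, so their log2 fold changes rest on few UMIs. The members with the highest CPM in neutrophils were Gapdh, at 3090.3, 2482, 755 and 615 CPM, Hilpda, at 889, 1289, 1496 and 438 CPM, and Pkm, at 1107, 1209, 736 and 789 CPM. Without the Lrrc25-/- MC38 library 7 members were higher and 2 lower, and with library totals 12 were higher and 5 lower.

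CD8 T cells had lower levels of most members than macrophages. In that fit 3 members were higher and 23 lower, beside 22.4% and 25.6% of 14680 genes (48% called). Bnip3 was at 73.0, 42.2, 38.8 and 40.6 CPM in CD8 T cells and 173, 161, 204 and 186 CPM in macrophages (-2.16 ± 0.22, lower in 4 of 4 libraries, edgeR adjusted p = 0.000414). Pfkfb4 (-2.36), P4ha2 (-2.28), Hk2 (-1.87) and Hilpda (-1.82) were also lower. Those higher were Slc2a3 (4.22), Ddit4 (1.53) and the lactate transporter gene Slc16a1 (1.08). The members with the highest CPM in CD8 T cells were Gapdh, at 3195, 2614, 1142 and 1295 CPM, Mif, at 1607, 1252, 489 and 509.6 CPM, and Ldha, at 1459, 1159, 611 and 542 CPM. With library totals 5 were higher and 17 lower, and without the Lrrc25-/- MC38 library 3 were higher and 14 lower.

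Most members were higher in melanoma cells than in macrophages, and most were lower in MC38 tumor cells. In melanoma cells 24 members were higher and 9 lower, beside 39.8% and 32.1% of 16910 genes (71.9% called). In MC38 tumor cells 5 were higher and 23 lower, beside 36.5% and 37.4% (73.9% called). Gapdh was at 9664 and 8975 CPM in WT and Lrrc25-/- melanoma cells and at 3041 and 2857 CPM in macrophages of the same libraries (1.53 ± 0.08). Mif, a cytokine that tumor cells also release, was at 5196 and 4726 CPM against 1285 and 1069 CPM (1.95 ± 0.09), and Pgk1 at 2529.5 and 2443 CPM against 794 and 805 CPM (1.51 ± 0.10). These melanoma values lay above the macrophage values of all 4 libraries.

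Car9 and Aldoc, an aldolase first known from brain, were the members with the largest excess in melanoma cells. Car9 was at 73.4 and 79.4 CPM in melanoma cells against 10.2 and 8.63 CPM in macrophages (2.90 ± 0.15) and at 1.99 and 4.19 CPM in MC38 tumor cells. Aldoc was higher in melanoma cells (2.65 ± 0.13) and lower in MC38 tumor cells (-5.32 ± 0.18) than in macrophages. In melanoma and MC38 tumor cells alike, Egln3 (-3.32 and -2.16), Pfkfb3 (-2.95 and -2.89), Pfkfb4 (-2.85 and -2.71) and Hilpda (-2.71 and -2.86) were lower than in macrophages. P4ha2 (1.07 and 1.31), Ddit4 (1.26 and 1.08) and Slc16a1 (0.90 and 1.48) were higher in both. The members with the highest CPM in MC38 tumor cells were Gapdh, at 1339 and 1748 CPM, Mif, at 993 and 1325 CPM, and Pkm, at 764 and 947 CPM. With library totals, which moved the median of all genes by 0.36 in the MC38 fit, 10 members were higher and 18 lower there.

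**Figure D3:**
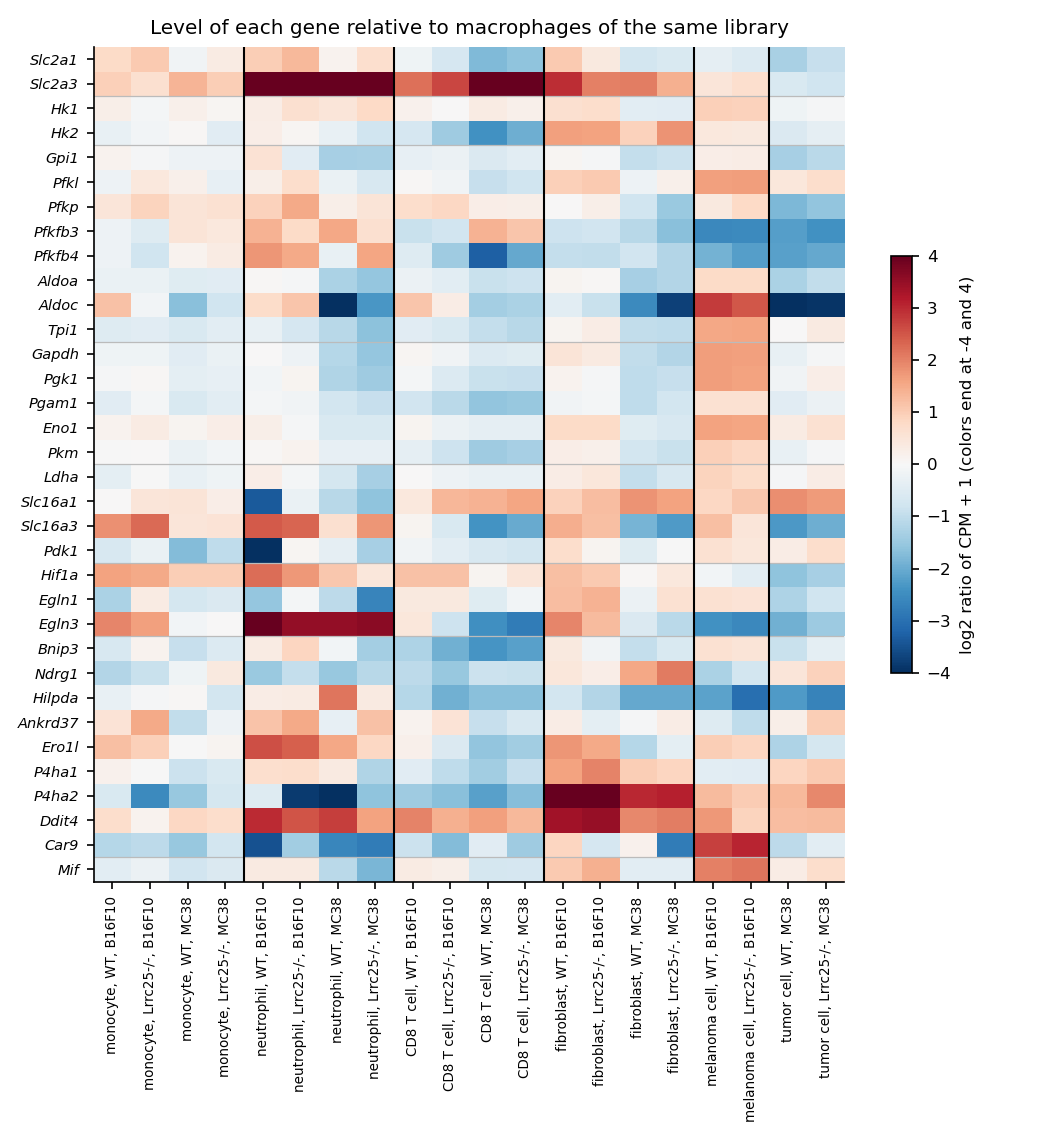
Level of each member relative to macrophages of the same library, as the log2 ratio of CPM + 1 (color), by cell class and library (columns) and gene (rows, by role). Slc2a3 and Egln3 are above macrophages in neutrophils of all 4 libraries, and P4ha2 is above them in fibroblasts of all 4 libraries.

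Fibroblasts (66 to 99 cells per library, not tested) had more P4ha2 than any other class measured, at 309, 292, 127 and 103 CPM.

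Between the tumor models, members differed in macrophages in both directions. With genotype as covariate 17 members were higher and 8 lower in B16F10 than in MC38, beside 30.9% and 32.6% of 14895 genes (63.5% called). With library totals, which moved the median of all genes by -0.41, 9 were higher and 11 lower. Hif1a had the largest difference, at 48.7 and 73.2 CPM in B16F10 and 419 and 408 CPM in MC38 macrophages of WT and Lrrc25-/- mice. The models did not overlap, and the log2 fold change was -2.38 ± 0.20 (edgeR adjusted p = 1.23e-05, lower in both B16F10 libraries). Hif1a was also lower in B16F10 neutrophils, at 232 and 244 against 894 and 559.8 CPM (-1.01 ± 0.36), and CD8 T cells, at 112 and 166 against 450.2 and 576 CPM (-1.44 ± 0.21).

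Several genes that low oxygen induces were higher in B16F10 macrophages. Ankrd37 was at 41.8 and 30.2 against 12.3 and 11.1 CPM (2.02 ± 0.17), Hilpda at 718 and 1031 against 336 and 341 CPM (1.76 ± 0.22) and Ddit4 at 8.36 and 9.79 against 3.40 and 4.11 CPM (1.69 ± 0.20). Car9 was at 10.2 and 8.63 against 5.15 and 6.02 CPM (1.16 ± 0.21). Among the enzymes, Ldha was at 1446 and 1348 against 752 and 660.3 CPM (1.40 ± 0.23) and Gapdh at 3041 and 2857 against 1662 and 1810.0 CPM (1.18 ± 0.27). None of these 6 genes overlapped between the models. They were picked among the largest called differences of a fit that called 63.5% of all genes, so this was largely set by the choice. The same holds for the genes named below as not overlapping in neutrophils and CD8 T cells. Aldoc was higher in MC38, at 7.64 and 7.55 against 27.5 and 32.8 CPM (-1.57 ± 0.17), as were Pfkfb4, Pfkp, Egln3, P4ha1, Hk1 and Egln1, with log2 fold changes from -1.04 to -0.65.

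Of the further pathway genes 21 were higher and 12 lower of 48 tested, led by Angptl4 (3.21 ± 0.33), the lipid droplet coat gene Plin2 (2.62 ± 0.27), Adm (2.42 ± 0.21), Vegfa (-2.29 ± 0.26), the gluconeogenesis gene Fbp1 (2.11 ± 0.66) and Mxi1 (-1.93 ± 0.18). Melanoma RNA moves with this comparison, with pigment genes at 404 and 271 CPM in B16F10 and 0.654 and 0.567 CPM in MC38 macrophages, and its part in the result was not tested. The median macrophage had 0.272% and 0.537% mitochondrial UMIs in the B16F10 libraries, against 2.64% and 2.46% in the MC38 libraries. Macrophage subsets also differed between the models. Arg1 had a UMI in 21.1% and 37.7% of B16F10 and in 78.7% and 69.2% of MC38 macrophages. Mrc1+ cells with neither Arg1 nor Cxcl9 numbered 2055 of 3540 and 1626 of 4025 in B16F10. In MC38 they numbered 459 of 8448 and 490 of 8365, and the part of this mix was not tested.

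In neutrophils 17 of the 27 members tested were higher in B16F10 and 1 was lower, beside 25.6% and 22.6% of 3417 genes (48.2% called). In CD8 T cells 21 of 34 were higher and 4 lower, beside 24% and 24.8% of 10544 genes (48.8% called). With library totals, which moved the medians of all genes by -0.54 and -0.45, the splits were 12 and 3 and 17 and 7. In neutrophils Mif was at 1665 and 1359.7 against 379.9 and 229 CPM (2.88 ± 0.36), and Aldoa at 1439 and 1330.3 against 365 and 313 CPM (2.56 ± 0.35). Neither overlapped between the models. Ankrd37 was at 92.8 and 88.1 against 9.62 and 26.1 CPM (2.71 ± 0.55) and Ddit4 at 72.9 and 61.4 against 28.9 and 14.5 CPM (2.24 ± 0.56). Among the enzymes Ldha was at 1724 and 1285 against 457 and 261 CPM (2.64 ± 0.36), Gapdh at 3090.3 and 2482 against 755 and 615 CPM (2.55 ± 0.35), Gpi1 at 676 and 340.3 against 149 and 139 CPM (2.24 ± 0.38) and Tpi1 at 617 and 414 against 207 and 133 CPM (2.13 ± 0.37). The MC38 neutrophils held 207947 and 344789 UMIs in all, so their values for Ankrd37 and Ddit4 rest on few UMIs. Pigment genes stood at 7.25% and 4.27% of the melanoma cell level in the B16F10 neutrophils. The 8 neutrophil markers summed to 86542 and 73423 CPM in B16F10 and to 40909.5 and 53923 CPM in MC38 neutrophils. The part of pigment RNA and of the marker difference in the result was not tested.

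In CD8 T cells Ankrd37 was at 46.4 and 44.1 against 6.04 and 6.80 CPM (3.25 ± 0.25). Slc2a3 was at 18.3 and 25.3 against 132 and 126 CPM (-2.10 ± 0.21) and Pfkfb3, an activator of glycolysis, at 15.6 and 17.2 against 81.6 and 68.8 CPM (-1.72 ± 0.21). Both were lower in B16F10, without overlap. Mif was at 1607 and 1252 against 489 and 509.6 CPM (1.97 ± 0.25), Hilpda at 328 and 272 against 105 and 105 CPM (1.96 ± 0.22) and Ddit4 at 36.0 and 27.7 against 12.7 and 11.5 CPM (1.83 ± 0.25). Egln3 was at 14.1 and 8.07 against 5.08 and 3.50 CPM (1.79 ± 0.40) and Slc2a1 at 101 and 71.8 against 33.7 and 34.4 CPM (1.77 ± 0.23). Pigment genes stood at 3.08% and 2.11% of the melanoma cell level in B16F10 CD8 T cells.

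**Figure D4:**
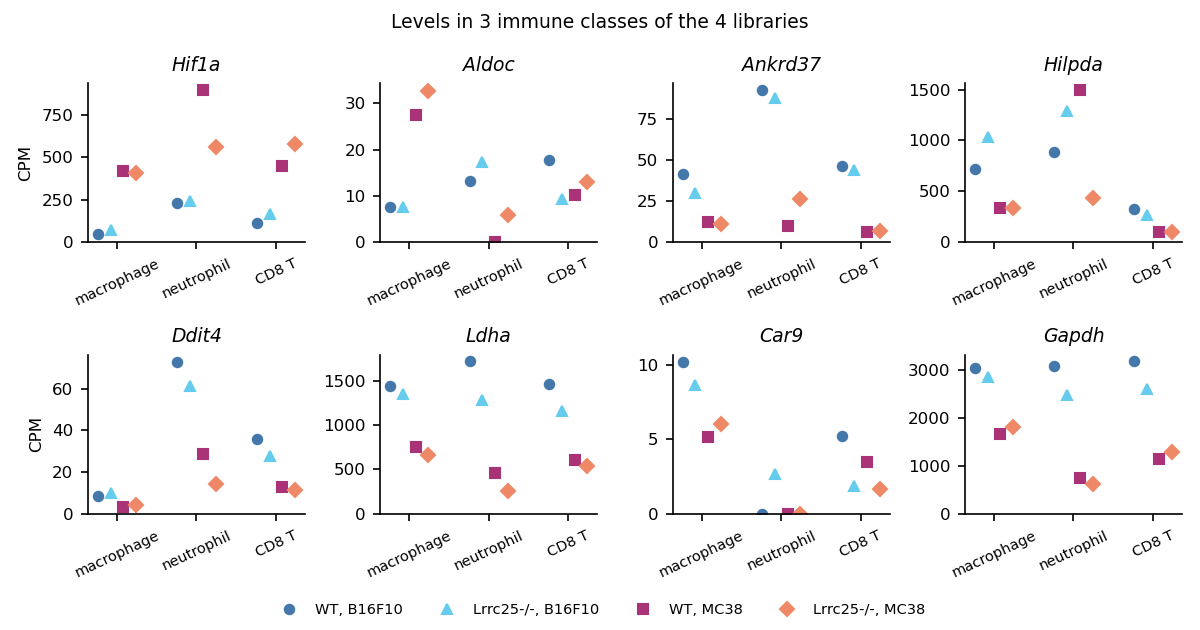
CPM of 8 members in macrophages, neutrophils and CD8 T cells, 1 marker per library, each panel with its own linear axis from 0. Hif1a is higher in both MC38 libraries in all 3 classes, at 419 and 408 against 48.7 and 73.2 CPM in macrophages, and Ankrd37, Ldha, Ddit4 and Gapdh are higher in both B16F10 libraries.

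The comparison of Lrrc25-/- with WT across both models called 0 members in macrophages, neutrophils and CD8 T cells. This was edgeR's quasi-likelihood test with tumor model as covariate, in which 0.00671%, 0.38% and 0.019% of all genes were called. The number of members at an unadjusted p under 0.05 was also 0 in each class, and DESeq2 called 0. The median log2 fold change of the members was -0.04, -0.22 and -0.16, beside -0.01, 0.03 and -0.02 for all genes. A p that misses the threshold does not show that the genotypes were alike.

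Within a model there is 1 library per genotype and no test, so a size rule was used: a difference of at least 1.5-fold in CPM + 1, with 20 CPM or more in either library and 50 UMIs in both together. In B16F10 macrophages 1 of 26 members measured was higher in Lrrc25-/- and 0 were lower (3.93% of all genes passed, 3.21% as higher). In those of MC38 0 of 28 passed (3.24% of all genes). The member was Hk2, the inducible hexokinase gene, at 76.3 and 119 CPM in WT and Lrrc25-/- B16F10 macrophages, a ratio of 1.56 (1.49 to 1.64) with its exact 95% interval, which covers counting error only. In MC38 macrophages Hk2 was at 164 and 143 CPM, a ratio of 0.872 (0.842 to 0.902). Hif1a was just under the limit in B16F10, at 48.7 and 73.2 CPM with a log2 ratio of 0.58.

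The median log2 ratio of the members measured was 0.00 in B16F10 and -0.07 in MC38 macrophages, beside 0.02 and -0.01 for all genes measured. It ran from -0.48 for Ndrg1 (169 and 121 CPM) to 0.64 for Hk2 in B16F10. In MC38 it ran from -0.37 for Ero1l (155 and 120.0 CPM) to 0.24 for Aldoc (27.5 and 32.8 CPM).

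The share of Arg1+ cells differed between the pools, with 661 of 3540 and 1372 of 4025 macrophages in WT and Lrrc25-/- B16F10 and 3742 of 8448 and 2155 of 8365 in MC38. With the subset mix of the WT pool, Hk2 no longer passed in B16F10, and Ndrg1 (-0.59) and Ankrd37 (-0.71) were lower. Within B16F10 subsets, 2 of 27 members were lower and 0 higher in Arg1+ cells (4.62% of all genes passed, 1.12% as lower). In Cxcl9+ cells 3 of 24 were lower and 0 higher (5.43%, 0.975% as lower). Ankrd37 passed in both, at 82.9 and 48.1 CPM in Arg1+ and 26.1 and 7.84 CPM in Cxcl9+ cells of WT and Lrrc25-/- mice. The others were Ndrg1 in Arg1+ cells (253 and 153 CPM), and Slc2a1 (80.2 and 48.0 CPM) and Bnip3 (113 and 71.8 CPM) in Cxcl9+ cells. In MC38 0 members passed in either subset (3.29% and 5.48% of all genes).

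In melanoma cells of Lrrc25-/- hosts 1 of 29 members was higher and 2 were lower (2.61% of all genes passed, 2.33% as higher and 0.283% as lower). Depth, mitochondrial share and cycling moved with this contrast, and their part was not tested: the median melanoma cell had 25462 UMIs and 0.306% mitochondrial UMIs in WT and 16043.5 UMIs and 1.47% in Lrrc25-/- hosts, and 83.6% and 68.8% of cells had a cycling marker. With melanoma cells taken by clusters the order of depth reversed. The medians were then 26922 UMIs in 3019 WT and 30986.5 UMIs in 1616 Lrrc25-/- cells. An unnamed cluster of low depth (median 976.5 UMIs) held 468 WT and 1334 Lrrc25-/- B16F10 cells, and 60.5% of it was gated as melanoma. By the marker gate Hk2 was at 102 and 157 CPM, Ankrd37 at 29.3 and 14.4 CPM and Ddit4 at 29.9 and 19.0 CPM in cells from WT and Lrrc25-/- hosts. In MC38 tumor cells 1 of 27 was higher and 0 were lower (1.68%, 0.88% as higher). It was Ankrd37, at 14.6 and 22.8 CPM, and the lowest log2 ratio was that of Hilpda, -0.39 (69.5 and 52.8 CPM). Ankrd37 thus stood lower in the Lrrc25-/- pool in melanoma cells and higher in MC38 tumor cells, a difference that was not tested. The median log2 ratio of the members measured in MC38 tumor cells was 0.25, beside -0.05 for all genes.

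In neutrophils of MC38 1 of 22 members was higher and 9 were lower (29.7% of all genes passed, 15.2% as higher and 14.4% as lower). In those of B16F10 0 of 26 were higher and 2 lower (32.1%, 22% as higher and 10.1% as lower). Hilpda was at 1496 and 438 CPM (311 and 151 UMIs) in WT and Lrrc25-/- MC38 neutrophils, a ratio of 0.293 (0.239 to 0.357), and at 889 and 1289 CPM in B16F10. The members lower in B16F10 neutrophils were Gpi1 (676 and 340.3 CPM) and Pfkfb3 (79.6 and 52.0 CPM), and the one higher in MC38 was Slc16a3 (293 and 568 CPM). With TMM scaling, under which the median of all genes in B16F10 neutrophils was 0.55, 9 were higher and 0 lower in B16F10, and 2 higher and 5 lower in MC38. In CD8 T cells of B16F10 1 of 28 was higher, Slc16a1, and 3 were lower, Bnip3, Ndrg1 and Ero1l (18.5% of all genes, 12.9% as higher and 5.54% as lower). In those of MC38 0 of 26 passed (9.06%). The B16F10 count of 4 became 12, with 2 higher and 10 lower, with the mean of per-cell CPM, and 9, with 2 higher and 7 lower, with classes by clusters. Beside it, macrophage markers summed to 629 CPM in WT and 324 CPM in Lrrc25-/- CD8 T cells of B16F10, and median depth was 5545 and 3090 UMIs; their part was not tested. In monocytes 6 of 26 members were higher and 0 lower in Lrrc25-/- B16F10 (17.4% of all genes, 10.5% as higher). In MC38 monocytes 0 of 26 were higher and 2 lower (14.5%, 7.64% as lower). Of the members measured in both models, 0 of 25 in macrophages, 0 of 21 in neutrophils and 0 of 25 in CD8 T cells passed in the same direction in both, beside 0.214%, 5.82% and 0.934% of all genes measured in both, and at such shares a count of 0 is not a result about the members.

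Across 11 B16F10 classes that share no cells, Hif1a was above its WT level in 11, with log2 ratios from 0.07 to 1.07, and Hk2 in 10. Among genes measured in 10 or more classes, 1 of 22 members (4.55%) was above 0 in all of them, beside 5.89% of 1852 genes. Ankrd37 was below its WT level in 9 of the 10 classes in which it was measured. Of 22 members measured in 10 or more classes, 8 were below 0 in all of them or all but 1 (36.4%, beside 15.8% of 1852 genes), namely Aldoa, Tpi1, Gapdh, Pgam1, Eno1, Ankrd37, Ero1l and Mif, and 2 were above 0 (9.09%, beside 13.6%). These classes come from 1 pool per genotype. Pigment genes were lower in Lrrc25-/- than in WT macrophages, monocytes, neutrophils, CD8 T cells and fibroblasts, and their part in these ratios was not tested. In MC38 0 of 18 members stood above 0 in all classes or all but 1, beside 11.1% of 1961 genes, and 0 stood below, beside 13.9%.

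**Figure D5:**
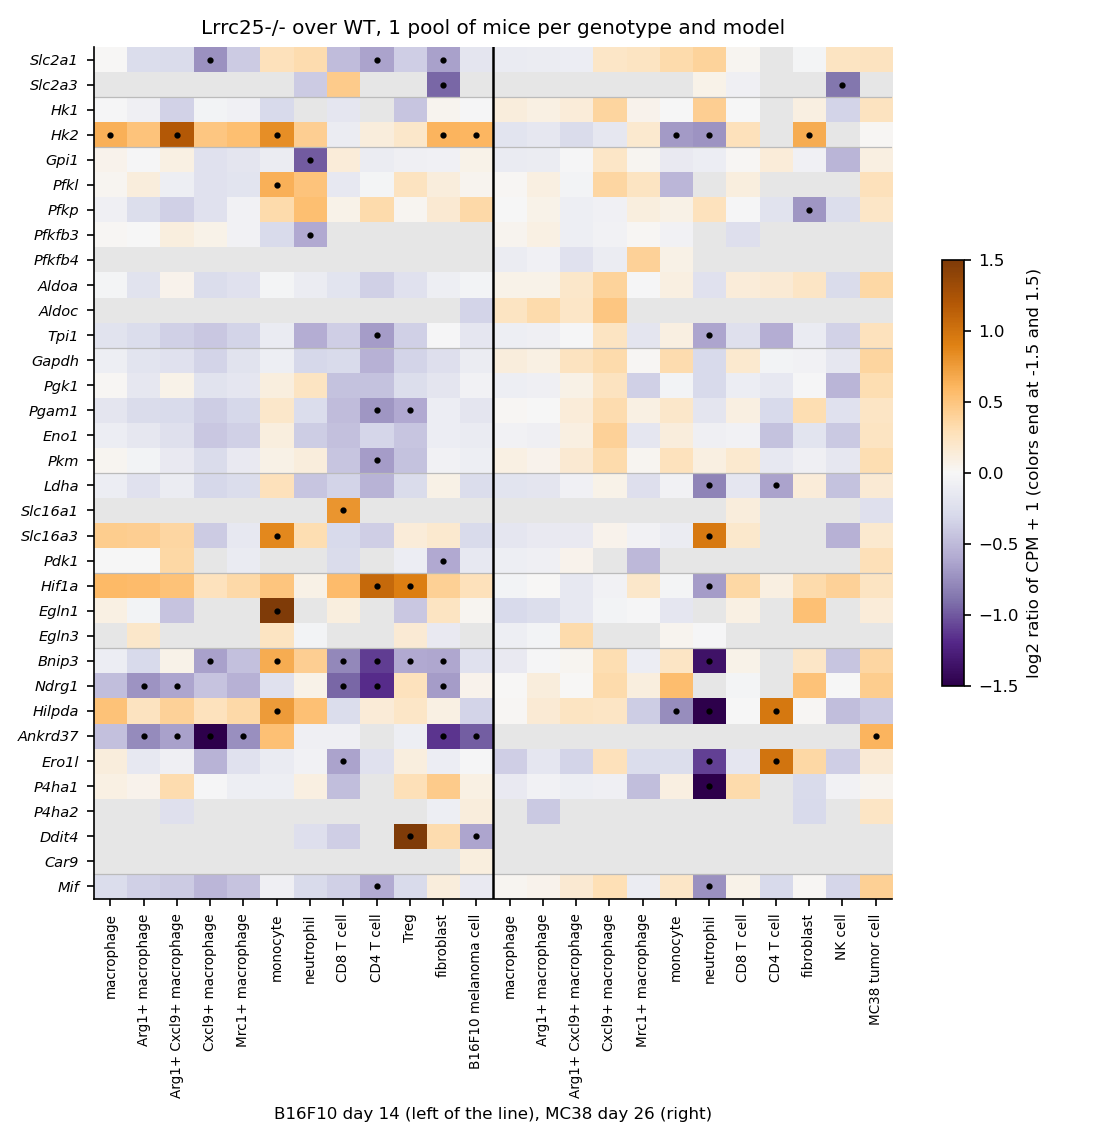
Log2 ratio of CPM + 1, Lrrc25-/- over WT, for each member (rows, by role) and cell class (columns), B16F10 left and MC38 right. Dots mark members past the size rule and grey cells were not measured. Each ratio sets 1 pool against 1 pool. Hif1a is above 0 in the 11 non-overlapping B16F10 classes, and 5.89% of 1852 genes were above 0 in every class measured.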

How the data were processed

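The deposited values are whole-number UMI counts per gene and cell barcode, not normalized, as deposited by the authors from SeekOne 3' droplet libraries, per the labels' protocols. Per the submitters' processing notes, reads were placed on mm10. The sources used here name no aligner or counting tool. A barcode was kept if it had 300 or more genes, 500 or more UMIs and no more than 20% of its UMIs on mitochondrial genes. Scrublet (scanpy 1.11.5, Python 3.11.15) scored doublets, and the highest scores were removed at 0.5% per 1000 cells, since its automatic threshold called 1.99% in 1 library and 0% in the others. Total depth was 105338548 to 138841749 UMIs per library. Cells were classed by marker genes, and UMIs were summed per class and library, which is the replicate.

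Sums were tested with edgeR 4.0.16 (R 4.3.3; quasi-likelihood test, TMM scaling, filterByExpr, Benjamini-Hochberg adjustment over all genes tested, threshold 0.05), with library as a block between classes or subsets and with model and genotype as terms otherwise. Where 1 library stands per genotype, a size rule replaced a test. Each fit was tested on simulated data, but the MC38 tumor cell term and the tumor model terms were left out of that test. DESeq2 1.42.0, library totals, other filters, gates and pseudocounts were tried as alternatives. Each group has 1 pool, so no p-value measures the spread between replicate pools of a group. Between classes or subsets, p-values measure how the difference varied over the libraries. Between genotypes or models, they measure how far the genotype difference varied between the tumor models. Promoter windows are from RefSeq.

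The members, lists and tests were chosen with earlier results of these data known. Members were given in full by these rules: the 12 largest called between subsets, those past the size rule in both models, up to 8 called per genotype or model fit, the highest and lowest ratios in macrophages and tumor cells, and the 3 with the highest CPM per class, with the rest as counts and ranges.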

Additional observations from a re-analysis of the deposited data

Results flagged for a closer look

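In monocytes (228 and 500 cells in WT and Lrrc25-/- B16F10, 235 and 445 in MC38), 2 members passed the size rule in opposite directions in the 2 models. They were 2 of the 25 members measured in both (8%), beside 1.80% of 4283 genes measured in both; 17.4% of all genes passed the rule in B16F10 and 14.5% in MC38. Hilpda had a log2 ratio of Lrrc25-/- over WT of 0.76 in B16F10, at 583 and 987 CPM, and of -0.76 in MC38, at 348 and 205 CPM. Hk2 had a log2 ratio of 0.82 in B16F10, at 62.6 and 111 CPM, and of -0.68 in MC38, at 169 and 105 CPM. Each value comes from 1 pool per genotype, and the difference between the models was not tested.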

How the results depend on the processing

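The count of members higher in Arg1+ than in Cxcl9+ macrophages stayed between 25 and 28 under the 9 other settings and between 26 and 27 when 1 library was left out. Leaving out 1 library gave 9 to 21 called members in neutrophils against macrophages (18 with all libraries; 9 without Lrrc25-/- MC38), 17 to 28 in CD8 T cells (26; 17 without Lrrc25-/- MC38), 27 to 32 in melanoma cells and 28 to 31 in MC38 tumor cells. The size rule is less stable where few members pass. In B16F10 macrophages, where 1 passed, 2 passed with the mean of per-cell CPM, without doublet removal, with a stricter gate (chosen after seeing the data) and, as other genes, with the subset mix of the WT pool, and 0 with classes by clusters. In MC38 tumor cells the count of 1 became 0 with a pseudocount of 5 and 2 with no minimum level. In B16F10 neutrophils, which hold 75 WT cells, the count of 2 became 1 with a pseudocount of 5, 4 with no minimum level, 9 with TMM scaling, 7 with the mean of per-cell CPM, 5 with classes by clusters and 8 with the stricter gate; the cause was not tested. Pfkfb3 there turned to 0.55 with the stricter gate. Car9, which did not pass the subset test, went from 0.11 to -0.07 without cycling cells, -0.01 with library totals and -0 without Lrrc25-/- B16F10, and was 0.24 without WT MC38. Of 149 settings tried on total counts of members, higher or lower, 134 kept the count within 1.5 times, including counts of 0 that stayed 0. These totals do not show changes of direction. The macrophage split between the models, for example, turned from more members higher to more lower with library totals. The CD8 T cell and monocyte counts that follow were not among these settings. In B16F10 CD8 T cells, where 4 passed, 12 did so with the mean of per-cell CPM, 9 with classes by clusters, 7 with no minimum level, 6 with TMM scaling and 3 without doublet removal or with the stricter gate, and in MC38 monocytes 5 in place of 2 with no minimum level. Between genotypes or models, no paired analysis was possible because each group holds 1 library and the labels carry no replicate numbers. Fits between classes or subsets were paired by library, which was their block.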
